A study of Mus musculus with 12 samples.

Results

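The interleukin-6 family comprises cytokines that share the receptor chain gp130. Its ligands and receptors were followed here through 8 genes, chosen by name among the 55487 genes of the count data. The ligands were Il6, Lif (leukemia inhibitory factor), Osm (oncostatin M) and Il11. The receptor chains were Il6ra, Lifr, Osmr and Il6st, the gene of gp130. Each gene was matched by its Ensembl identifier to the GENCODE annotation of the mouse genome GRCm38, and all 8 were found and passed the filter on low counts in both experiments.

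RNA-seq was performed on 12 libraries of C57BL/6 mouse cells labelled with an age of 8 weeks. In the first experiment, bone marrow-derived macrophages (BMMs), grown from limb bones with macrophage colony-stimulating factor, came from ovariectomized (OVX) mice or from sham mice, with 3 libraries of each. Ovariectomy removes the ovaries and serves as a model of postmenopausal bone loss. In the second experiment, mesenchymal stem cells (MSCs), which are the adherent cells of tibia and femur marrow after passage, were kept alone (MSC), co-cultured with RAW cells (MSC+RAW-TW) or co-cultured with RAW cells stimulated with lipopolysaccharide (LPS; MSC+RAW-LPS-TW), with 2 libraries of each. RAW cells are a mouse macrophage cell line, LPS is a bacterial cell wall component that activates macrophages, and TW stands for the Transwell in which a porous membrane parts the cells. The labels of the libraries say only that the cells were co-cultured. LPS was absent from the MSC and MSC+RAW-TW groups by label, and whether any LPS was carried over to the MSCs is not given in the sources used here.

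Ligands of this family bind a receptor chain of their own and then gp130. IL-6 binds the IL-6 receptor, which exists on the membrane and as a shed soluble form, IL-11 binds its own receptor, and LIF binds the LIF receptor paired with gp130. Oncostatin M of the mouse acts mainly through the oncostatin M receptor paired with gp130. The bound receptors activate JAK kinases and STAT3, whose target Socs3 feeds back on the receptor, and in bone the family is known for acting on osteoblasts and, through them, on osteoclasts.

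Some libraries needed care. Library totals ran from 17012923 to 45367105 counts. Sham replicates 2 and 3, and the pair of MSC+RAW-TW libraries, were nearly identical: the median per-gene chi-square, as a ratio to sampling alone, was 3.09 and 3.56 at high counts, against 44.8 to 353 in the other pairs of libraries of a group. Each near-identical pair was therefore counted as 1 sample, which left n = 3 OVX, n = 2 sham, n = 2 MSC, n = 1 MSC+RAW-TW and n = 2 MSC+RAW-LPS-TW. The spread of the lone MSC+RAW-TW sample was assumed to be like that of the other MSC groups. Nothing in the labels says whether libraries of a group came from separate animals or cultures, so p-values measure only the spread between these libraries. The log2 level of each gene was taken relative to its mean over the libraries of the experiment. Spearman's rho across genes between these relative levels and GC content was -0.605 to -0.341 in OVX and 0.214 to 0.514 in sham libraries. It was 0.383 to 0.387 in MSC+RAW-TW against -0.310 to -0.141 in the other MSC libraries. Opposite signs between groups follow partly from this centering. The fit without trends on GC content and gene length is given below where it ended or added a call of the 8 genes or moved their fold by over 1.5 times.

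The cell types were checked against their markers, in CPM, the count of a gene scaled to a common library size. All 10 macrophage markers were detected in every BMM library. The 12 stromal markers were detected in both BMM groups too, at summed levels of 7543 to 8185 CPM in OVX and 7218 to 7788 CPM in sham, with Col1a1, a collagen gene of stromal cells, at 1903 to 2057 CPM. The macrophage markers were also detected in every library labelled MSC, where they summed to 26170 to 26390 CPM in MSC, 33040 to 33410 in MSC+RAW-TW and 14300 to 14670 in MSC+RAW-LPS-TW, most of it Lyz2. All 12 stromal markers were detected in the MSC groups as well, at summed levels of 2683 to 2822, 2167 to 2168 and 4104 to 4126 CPM in the same order, below those of the separately scaled BMM libraries. Among the stromal markers in the MSC groups, Col1a1 was at 453 to 792 CPM, Cxcl12 at 179 to 354 CPM and Pdgfrb at 140 to 167 CPM, while Thy1, a surface marker commonly used for MSCs, was at 0.240 to 2.16 CPM. Ptprc, the pan-leukocyte gene CD45, stood at 89.8 to 228 CPM in these libraries. The libraries labelled MSC therefore carried macrophage transcripts, and those labelled BMM stromal transcripts, at high level, and the levels below belong to the whole culture. In bulk RNA, fewer cells of a type and less RNA per cell cannot be told apart. The neutrophil list was high in MSC+RAW-LPS-TW only through S100a8 (341 to 515 CPM), Csf3r (73.2 to 99.8 CPM) and Camp (28.7 to 39.6 CPM), while Elane and Ltf were at 0 in these libraries. Lymphocyte markers summed to at most 10.4 CPM and endothelial markers to at most 47.2 CPM in any library.

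The genes lie at separate places in the genome, except for 2 neighbouring sets. Lif (chromosome 11, 4257557 to 4272514, plus strand) and Osm (chromosome 11, 4236420 to 4241026, plus strand) are 16.5 kb apart. Lifr (chromosome 15, 7090614 to 7197489, plus strand) and Osmr (chromosome 15, 6813577 to 6874969, minus strand) are 215.6 kb apart. Il6 is on chromosome 5 (30013114 to 30019981, plus strand), Il11 on chromosome 7 (4772373 to 4782859, minus strand), Il6ra on chromosome 3 (89864059 to 89913196, minus strand) and Il6st on chromosome 13 (112464070 to 112510086, plus strand). Exons of Il6ra overlap those of the antisense gene Gm42809, and although the library kit was directional, the strand setting of the counting is not stated, so reads of the overlap could not be assigned to one of them with certainty.

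The promoters of the 3 ligands that rose most in MSC+RAW-LPS-TW are shown because they were searched for motifs of factors that act downstream of LPS-activated receptors. They are the 250 bases before the start of the transcript in RefSeq (GRCm38.p6), read 5' to 3' on the strand of the gene, and capitals mark motif matches. The motifs searched on both strands were NF-kB (GGG, then any 2 bases, TT, any base and CC), AP-1 (TGANTCA), C/EBP (TTGNGCAA) and STAT (TTCNNNGAA), in which N stands for any base, and no matches overlapped in these windows.
Il6, chr5:30012864-30013113, plus strand: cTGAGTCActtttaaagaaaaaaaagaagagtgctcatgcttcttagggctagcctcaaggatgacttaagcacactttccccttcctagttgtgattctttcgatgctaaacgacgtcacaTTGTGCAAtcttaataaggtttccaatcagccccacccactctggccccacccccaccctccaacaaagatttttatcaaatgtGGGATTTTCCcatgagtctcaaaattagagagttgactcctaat
Lif, chr11:4257318-4257567, plus strand: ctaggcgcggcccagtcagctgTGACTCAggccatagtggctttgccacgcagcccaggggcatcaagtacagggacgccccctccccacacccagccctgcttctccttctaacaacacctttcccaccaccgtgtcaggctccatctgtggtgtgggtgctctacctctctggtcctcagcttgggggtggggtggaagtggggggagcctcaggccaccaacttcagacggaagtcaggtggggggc
Il11, chr7:4778142-4778391, minus strand: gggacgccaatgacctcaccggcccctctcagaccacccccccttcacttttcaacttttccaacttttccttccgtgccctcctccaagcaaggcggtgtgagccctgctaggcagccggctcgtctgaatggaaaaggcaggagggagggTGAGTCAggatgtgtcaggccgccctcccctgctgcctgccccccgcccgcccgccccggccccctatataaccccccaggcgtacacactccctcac
The Il6 window held an AP-1 match at positions -249 to -243 from the start, a C/EBP match at -128 to -121 and an NF-kB match at -44 to -35. The Lif window held an AP-1 match at -228 to -222. The Il11 window, which lies inside the annotated span of the gene, held an AP-1 match at -98 to -92, and the window of a second Il11 start, at 4782858 to 4783107, held none. RefSeq windows were found for 7 of the 8 genes, in 9 windows, and those of Il6ra, Lifr, Osmr and Il6st held no match of any of the 4 motifs. Of all 32851 promoter windows of this length, 6.75% held an AP-1 match, 4.11% an NF-kB match, 2.61% a C/EBP match and 7.02% a STAT match. A match is a description of the letters and not evidence of binding.

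**Figure D1:**
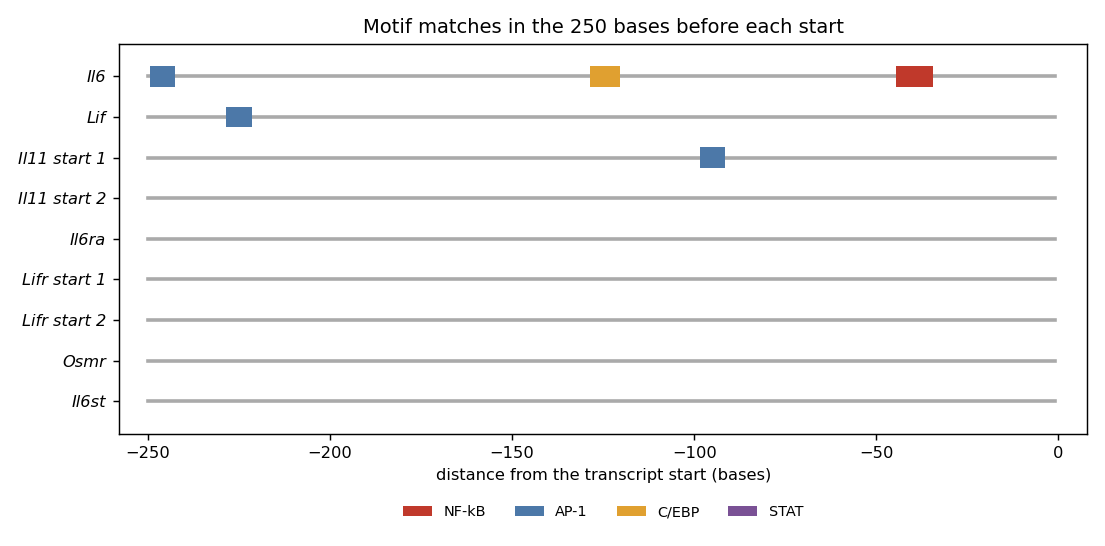
Motif matches (coloured blocks) along the 250 bases before each RefSeq transcript start (grey lines), with the distance from the start in bases on the x axis and 1 line per window on the y axis. The Il6 line carries 3 matches, the Lif line and the first Il11 line carry an AP-1 match each, and the other 6 lines are empty.

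In the MSC groups, the ligands Il6, Lif and Il11 were far higher with LPS-stimulated RAW cells than in MSCs alone, and the receptor genes Il6ra and Lifr were lower. Of the 8 genes, 3 were called higher and 2 lower in MSC+RAW-LPS-TW against MSC, where 10.9% of the 20499 genes tested were called, 5.85% higher and 5.09% lower. A gene was called at an adjusted p of at most 0.05 and a fold of at least 2. Every one of the 8 genes had libraries that did not overlap between these groups, which also held for 57.6% of all genes tested.

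Il6, the founding cytokine of the family, had 13 and 26 counts in the MSC libraries (0.382 and 0.531 CPM), 1.71 and 1.82 CPM in the MSC+RAW-TW libraries and 192 and 216 CPM in the MSC+RAW-LPS-TW libraries. The groups stood apart in that order. Against MSC, the log2 fold change in MSC+RAW-LPS-TW was 8.76 (SE 0.24, adjusted p = 1.66e-12), a 434-fold difference. Since it rests on few counts in MSCs, the size of this fold is less certain than its direction. Il6 was also the only one of the 8 genes called in MSC+RAW-TW against MSC, at 1.93 (SE 0.28, adjusted p = 0.000332), and at 2.97 with trends on GC content and length removed.

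Lif, which is known for keeping stem cells undifferentiated and for acting on bone cells, was at 4.63 and 5.41 CPM in MSC, 6.28 and 6.72 CPM in MSC+RAW-TW and 200 and 227 CPM in MSC+RAW-LPS-TW. Its log2 fold change against MSC was 5.42 (SE 0.19, adjusted p = 1.89e-11), or 42.7-fold. Il11, a ligand known in bone for promoting osteoblast formation, was at 1.63 and 4.08 CPM in MSC, 1.81 and 1.90 CPM in MSC+RAW-TW and 37.7 and 38.3 CPM in MSC+RAW-LPS-TW. The MSC and MSC+RAW-TW libraries overlapped, and both lay far below the LPS libraries. The difference from MSC was 3.76 on the log2 scale (SE 0.31, adjusted p = 2.70e-07). It was 3.22 without MSC replicate 1 and 4.54 without MSC replicate 2.

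Osm, the immediate neighbour of Lif and a ligand made mainly by macrophages and other blood cells, moved much less. It was at 6.76 and 9.72 CPM in MSC, 5.35 and 5.97 CPM in MSC+RAW-TW and 13.9 and 15.2 CPM in MSC+RAW-LPS-TW. The groups did not overlap, but the log2 fold change against MSC of 0.81 (SE 0.23, adjusted p = 0.0193) was below the fold limit. Without MSC replicate 1 it was 1.11 and was called.

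**Figure D2:**
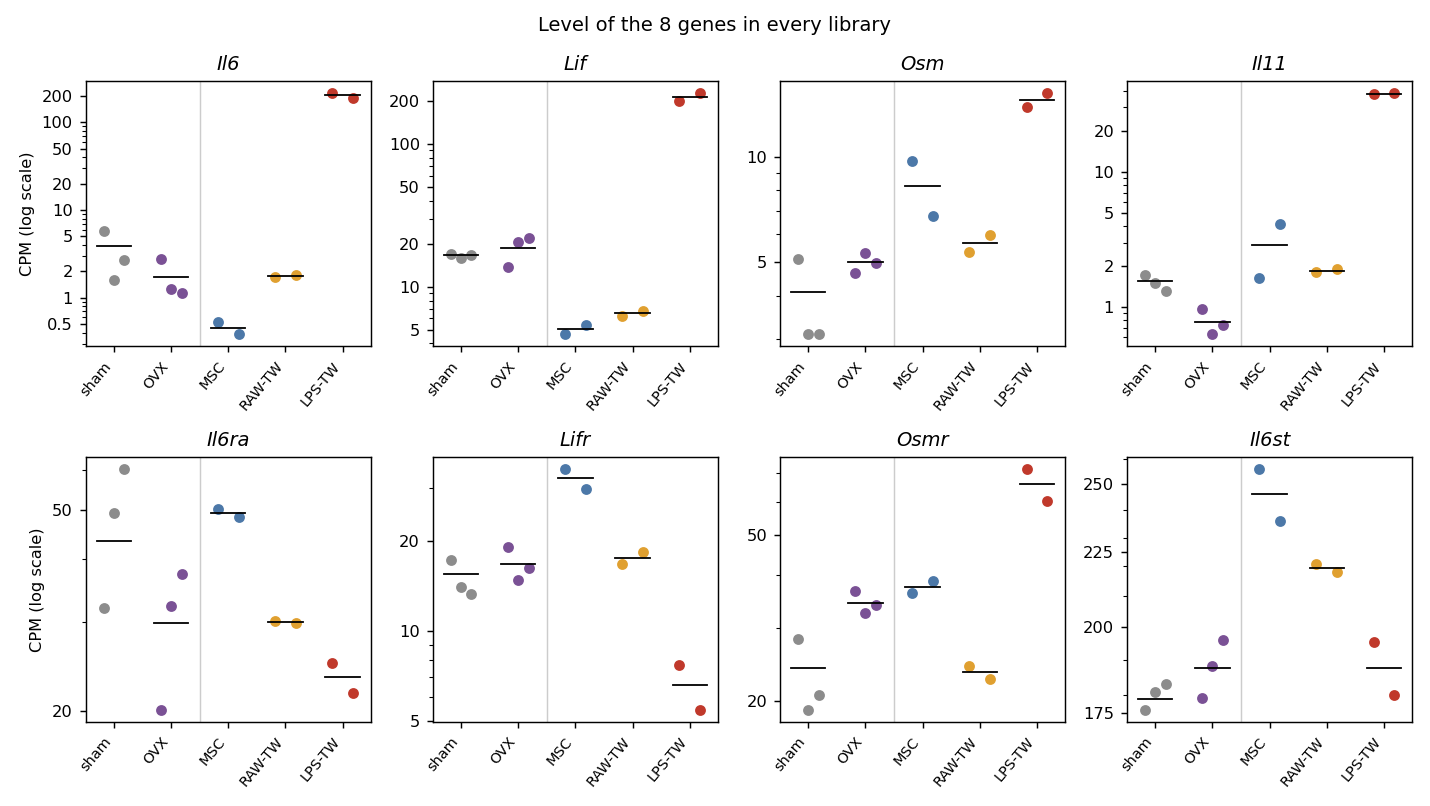
CPM of the 8 genes in each of the 12 libraries (points; y axis on a log scale, different in each panel), by group, with the group mean as a line that counts each near-identical pair as 1 sample and a grey line between the separately scaled experiments. RAW-TW and LPS-TW stand for MSC+RAW-TW and MSC+RAW-LPS-TW. Il6, Lif, Osm, Il11 and Osmr were highest in both LPS-TW libraries, and Lifr was lowest there.

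Among the receptors, Lifr, the chain that binds LIF, fell most. It was at 29.9 and 34.7 CPM in MSC, 16.8 and 18.4 CPM in MSC+RAW-TW and 5.44 and 7.71 CPM in MSC+RAW-LPS-TW. The 3 groups stood apart, and the LPS group was 4.91-fold lower than MSC (log2 fold change -2.30, SE 0.21, adjusted p = 7.98e-07). Lif and its receptor gene thus changed in opposite directions in the same libraries. Its neighbour Osmr, the chain that binds oncostatin M, was at 36.4 and 38.7 CPM in MSC, 22.6 and 24.3 CPM in MSC+RAW-TW and 60.0 and 71.8 CPM in MSC+RAW-LPS-TW. The log2 fold change against MSC was 0.81 (SE 0.16, adjusted p = 0.00142), below the fold limit.

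Il6ra, the ligand-binding chain for IL-6, was at 48.5 and 50.1 CPM in MSC, 29.9 and 30.1 CPM in MSC+RAW-TW and 21.8 and 24.9 CPM in MSC+RAW-LPS-TW. It fell 2.11-fold against MSC (log2 fold change -1.08, SE 0.16, adjusted p = 0.000128). This call sat at the fold limit, and without 1 of the MSC+RAW-LPS-TW libraries (library b) the value was -0.98 and was not called. Il6st, the shared chain gp130, varied least. It was at 236 and 256 CPM in MSC, 218 and 221 CPM in MSC+RAW-TW and 180 and 195 CPM in MSC+RAW-LPS-TW, and its log2 fold change of -0.39 (SE 0.15, adjusted p = 0.0773) did not pass the test.

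Macrophage and stromal markers moved in the same libraries. Macrophage markers summed to a lower level with LPS-stimulated RAW cells than in MSCs alone (ranges above). Lyz2, which made up most of the sum, fell from a mean of 21663 to 9569 CPM. Of the 10 markers 4 had positive log2 fold changes, and the list median was -0.22 against -0.01 for all genes. Cd68 and Lyz2 were called lower at -2.82 and -1.18, and Adgre1 was called higher at 1.42. The summed stromal level was higher, with 3 of 12 markers called higher. The part of these markers in the values of the 8 genes was not tested.

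The second comparison of this experiment sets the LPS group beside MSC+RAW-TW, and the groups by their labels differ in the stimulation of the RAW cells. It shares the LPS libraries with the comparison above. Of the 8 genes, 5 were called higher and 1 lower, where 27.4% of all genes tested were called, 15.4% higher and 12% lower. All 8 had libraries that did not overlap, as did 78.1% of all genes. The log2 fold changes of the ligands were 6.83 for Il6 (SE 0.28), 5.02 for Lif (SE 0.25), 4.33 for Il11 (SE 0.43) and 1.34 for Osm (SE 0.30), with adjusted p between 2.52e-10 and 0.00208. Lifr was lower by -1.44 (SE 0.24, adjusted p = 0.000223). Osmr was higher by 1.46 (SE 0.21, adjusted p = 5.54e-05). With trends on GC content and length removed, Osmr was at 0.88 and not called, and Il6 was at 5.82. Il6ra at -0.39 (SE 0.19, adjusted p = 0.118) and Il6st at -0.25 (SE 0.18, adjusted p = 0.271) did not pass. Of the 10 macrophage markers, 4 were called higher and 4 lower here, among them Adgre1 at 2.11, Cd68 at -3.20 and Tyrobp at -2.18. Of the 12 stromal markers, 5 were called higher, Dcn at 6.42 among them, and 1 lower. Their part in these values was not tested.

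In MSC+RAW-TW against MSC, in which untreated RAW cells were added, 1 of the 8 genes was called higher and 0 lower, where 16.4% of all genes were called, 6.8% higher and 9.59% lower. The edgeR test gave unadjusted p-values below 0.05 for 3 of the lower genes, namely Lifr at -0.86 (SE 0.25, adjusted p = 0.0178), Il6ra at -0.69 (SE 0.20, adjusted p = 0.0176) and Osmr at -0.65 (SE 0.20, adjusted p = 0.0241), each below the fold limit. With trends on GC content and length removed, Osmr was at -0.10 (adjusted p = 0.703) and Lifr at -0.45 (adjusted p = 0.162), so neither passed the test, while Il6ra was at -0.67 (adjusted p = 0.0203). Osm was then at -0.95 (adjusted p = 0.0294), still below the fold limit. Lif at 0.40 (SE 0.20), Osm at -0.52 (SE 0.29), Il11 at -0.57 (SE 0.38) and Il6st at -0.14 (SE 0.18) had adjusted p from 0.149 to 0.597. The value of Il11 depended on the MSC library it was set against, since it was -1.11 and called without MSC replicate 1 and 0.21 without MSC replicate 2. With 7 of the 8 genes, the libraries did not overlap, against 78.4% of all genes. Of the macrophage markers 1 was called, Tyrobp at 1.67, and of the stromal markers 2 were called higher and 2 lower, the latter Dcn at -1.75 and Pdgfra at -1.07. Their part in these values was not tested.

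All genes together were shifted in the comparisons with MSC+RAW-TW, by a median of 0.137 (MSC+RAW-LPS-TW against it) and -0.134 (it against MSC) on the log2 scale. Relative to these medians the first comparison gave 6.69 for Il6, 4.88 for Lif, 4.19 for Il11, 1.20 for Osm, 1.32 for Osmr and -1.57 for Lifr. The second gave 2.07 for Il6 and -0.72, -0.56 and -0.51 for Lifr, Il6ra and Osmr.

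**Figure D3:**
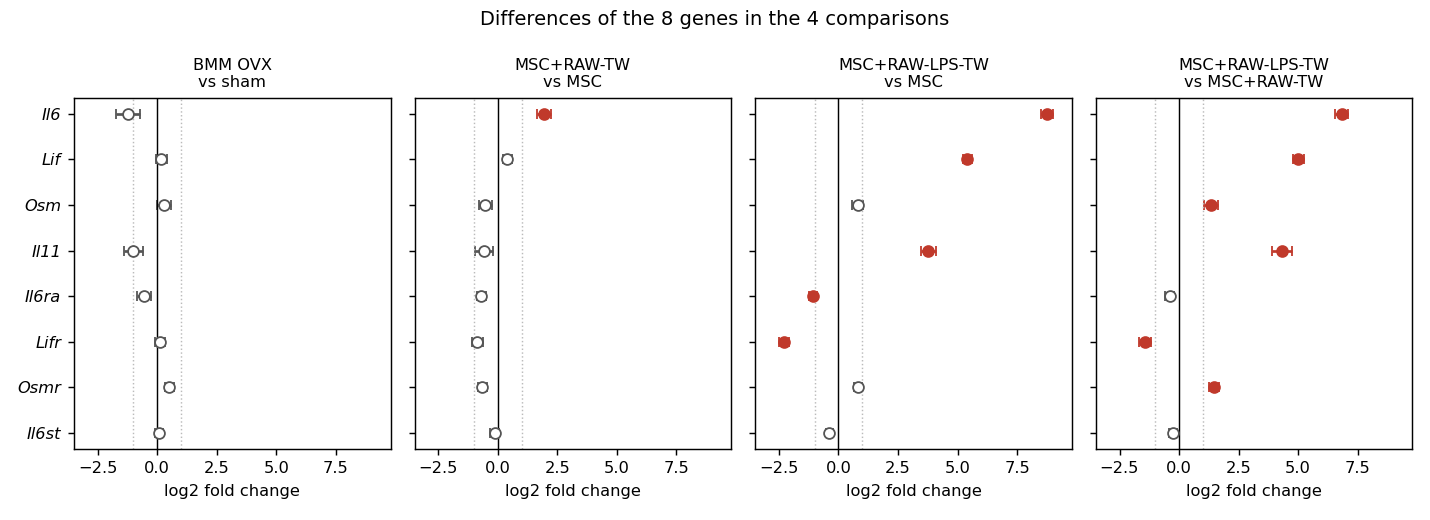
Log2 fold changes of the 8 genes (points, with the SE as bars) in the 4 comparisons, filled red where called and open where not, with dotted lines at the fold limit of 2 in either direction. Il6, Lif and Il11 lie far to the right in both comparisons of MSC+RAW-LPS-TW, no point is filled in BMMs, where Il6 (-1.22) and Il11 (-1.01) lie to the left, and Lifr lies to the left in both LPS comparisons.

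Levels between genes were compared per kilobase of exon. The length used was that of all annotated exons of a gene, from 2081 bp for Il11 to 12113 bp for Osmr. It is not the length of the transcripts present, so the order of genes with close values is uncertain, also where libraries did not overlap. In MSC, Il6st led with 22.2 CPM per kb, followed by Il6ra at 5.71, Osm at 3.63, Osmr at 3.10, Lifr at 3.0, Il11 at 1.37, Lif at 1.15 and Il6 at 0.188. Neighbours whose libraries overlapped in this order were Osm with Osmr, Osmr with Lifr, and Il11 with Lif. In MSC+RAW-TW the order of the first 5 was the same, and Il6 was again last at 0.727 CPM per kb.

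In MSC+RAW-LPS-TW the order of the ligands and receptors was turned over. Il6 led with 84.0 CPM per kb, then Lif at 49.1, Il11 at 18.3 and Il6st at 16.9, and no neighbours overlapped. Osm at 6.40, Osmr at 5.44 and Il6ra at 2.70 followed, with Lifr last at 0.610 CPM per kb. The transcript of gp130 was thus the highest of the 8 in every group but this one.

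**Figure D4:**
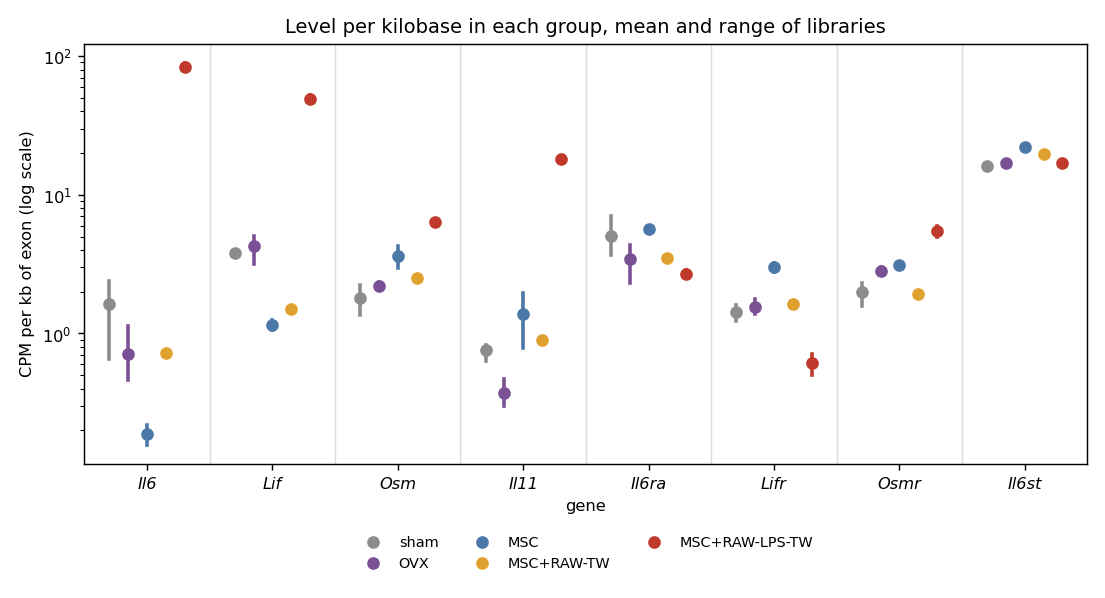
Mean CPM per kb of exon (points; y axis on a log scale) of each gene on the x axis in the 5 groups (colours), with lines from the lowest to the highest library. Il6st was between 16.1 and 22.2 in every group, while Il6 ran from 0.188 in MSC to 84.0 in MSC+RAW-LPS-TW.

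In BMMs, which were compared to ask how ovariectomy changes marrow macrophages, none of the 8 genes was called between OVX and sham, where 8.46% of the 16768 genes tested were called, 5.39% higher and 3.08% lower. This split of 903 higher and 516 lower genes became 199 and 341 with trends on GC content and length removed, and without OVX replicate 2 only 309 genes were called. The edgeR test gave an unadjusted p below 0.05 for 3 of them, namely Il6 (0.0437), Il11 (0.0327) and Osmr (0.0362), and DESeq2 called none of them either. The libraries of the groups did not overlap for Osmr, which was higher in OVX, and Il11, which was lower, as was the case for 42.9% of all genes.

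Il6 was at 2.77, 1.26 and 1.12 CPM in OVX and at 5.76, 1.58 and 2.66 CPM in sham. The groups overlapped, and the highest library was sham replicate 1. The log2 fold change was -1.22 (SE 0.51, adjusted p = 0.155). It was -0.37 without sham replicate 1, and it was called with no filter on low counts (-1.21, adjusted p = 0.0124) and with trends on GC content and length removed (-2.18, adjusted p = 0.0261). Il6 exons are 38.6% GC.

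Il11 was lower in all OVX libraries, at 0.974, 0.628 and 0.739 CPM against 1.73, 1.52 and 1.31 CPM in sham, from 24 to 66 counts a library. The log2 fold change was -1.01 (SE 0.39, adjusted p = 0.129). Osmr was higher in all OVX libraries, at 36.8, 32.5 and 34.0 CPM against 28.1, 19.0 and 20.7 CPM in sham, a log2 fold change of 0.51 (SE 0.21, adjusted p = 0.138). That value fell to 0.09 with GC content and length trends removed.

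For the other genes, the spread within groups was as large as the difference between them. Lif was at 13.8 to 21.8 CPM in OVX and 15.8 to 16.9 CPM in sham (log2 fold change 0.17, SE 0.24). Osm was at 4.66 to 5.31 CPM against 3.10 to 5.08 CPM (0.28, SE 0.29), and Il6ra at 20.1 to 37.3 CPM against 32.0 to 60.3 CPM (-0.56, SE 0.31). Lifr was at 14.8 to 19.1 CPM against 13.3 to 17.2 CPM (0.11, SE 0.21). Il6st was at 179 to 196 CPM against 176 to 183 CPM (0.06, SE 0.17).

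Per kilobase, Il6st led in both BMM groups, at 16.1 CPM per kb in sham and 16.9 in OVX, and Il11 was last, at 0.755 and 0.375. Lif was among the first 3 in BMMs, at 3.80 CPM per kb in sham and 4.30 in OVX. The levels of the experiments were scaled separately, so they are set beside each other without a test.

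The other genes of the pathway were counted in lists. The transduction list held 18 genes, namely kinases, STATs, phosphatases, inhibitors and the signaling genes Grb2, Gab1 and Sos1. The STAT3 list held 16 known target genes, and a further list 14 other ligands and receptors that use gp130 or close relatives of it. Lists of 4 genes of receptor shedding and of 12 regulators of Il6 transcription and mRNA decay were added. Socs3, Cebpb, Cebpd and some others stand in more than 1 list.

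In MSC+RAW-LPS-TW against MSC, 4 of 18 transduction genes rose and 0 fell, with a list median of 0.31 against -0.01 for all genes, of which 5.85% were called higher and 5.09% lower. Socs3, the feedback inhibitor of gp130, rose from 24.6 and 25.8 CPM in MSC to 414 and 423 CPM, a log2 fold change of 4.06 (SE 0.16, adjusted p = 9.23e-11). Socs1, a related inhibitor, rose by 3.40 (SE 0.18), and the kinase gene Jak2 by 3.14 (SE 0.16), from a mean of 45.5 CPM to 402 CPM. Jak1, the main kinase of gp130, was at 0.12 (SE 0.15, adjusted p = 0.655), and Stat3 at 0.71 (SE 0.15, adjusted p = 0.00295) stayed below the fold limit.

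Of the STAT3 targets, 9 of 16 rose and 1 fell in that comparison, where 10.9% of all genes were called, with a median of 1.64. Beside Socs3, the acute-phase genes Hp (3.64, SE 0.19) and Saa3 (3.54, SE 0.18) rose most, and the gene that fell was Bcl2l1 (-1.10, SE 0.15), the survival gene of BCL-XL. Many of these genes are also known targets of other factors, NF-kB among them. Of the regulators of Il6 transcription and decay, 6 of 12 rose and 0 fell (median 0.96), beside 5.85% of all genes called higher, led by Nfkbiz (3.35, SE 0.17), the nuclear IkB-zeta needed for Il6 transcription, Zc3h12a (2.77, SE 0.16), the ribonuclease Regnase-1 that degrades Il6 mRNA, and Cebpb (1.88, SE 0.18).

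In the list of other family genes, 2 of 11 tested rose against MSC and 0 fell (median 0.43), beside 5.85% of all genes called higher. Il27, a subunit of interleukin-27, rose by 2.92 (SE 0.36) to a mean of 6.87 CPM. Of the 4 shedding genes 0 were called, where 10.9% of all genes were called. Adam17, the main sheddase of the IL-6 receptor, was at 0.06 (SE 0.15) and Adam10 at 0.08 (SE 0.16).

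Against MSC+RAW-TW, the LPS group had 4 transduction genes higher and 1 lower of 18 (median 0.52 against 0.137 for all genes), a share near the 27.4% of all genes called, with Jak2 at 3.53 (SE 0.22), Socs1 at 3.34 (SE 0.24) and Socs3 at 3.30 (SE 0.21). Jak1 was at 0.58 (SE 0.19, adjusted p = 0.0215) and Stat3 at 0.36 (SE 0.19, adjusted p = 0.139), neither called. The STAT3 list had 8 higher and 1 lower of 16 (median 1.08), led by Socs3, Hif1a (3.02, SE 0.24) and Saa3 (2.40, SE 0.23), and the regulators of Il6 had 5 higher and 0 lower of 12 (median 0.79), led by Nfkbiz (3.73, SE 0.23), Rel (2.63, SE 0.25) and Zc3h12a (1.90, SE 0.21). Of the shedding genes, Rhbdf2, which helps ADAM17 mature, rose by 1.01 (SE 0.19), and 3 were not called, again a share near that of all genes. This call sat at the fold limit and was lost with RLE factors and with DESeq2, at 0.998, and without MSC+RAW-LPS-TW library a, at 0.947.

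Il11ra1, the receptor chain of interleukin-11, was at a mean of 17.0 CPM in MSC, 44.6 CPM in MSC+RAW-TW and 15.4 CPM in MSC+RAW-LPS-TW. It rose by 1.42 (SE 0.21, adjusted p = 0.000339) in MSC+RAW-TW against MSC and was lower by -1.57 (SE 0.21, adjusted p = 3.24e-05) in the LPS group against MSC+RAW-TW. Il11ra2 was called in the same comparisons at 1.56 (SE 0.52) and -1.85 (SE 0.52), but it is a near-identical copy of Il11ra1, so reads could have been split between them. With trends on GC content and length removed, Il11ra2 was at -1.24 and no longer called against MSC+RAW-TW, while Il11ra1 remained called. Il27 was at 3.26 (SE 0.48) against MSC+RAW-TW.

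With untreated RAW cells, 3 of 11 other family genes rose against MSC, Il11ra2 and Il11ra1 among them. Of the transduction genes 0 rose and 1 of 18 fell, Ptpn2 (-1.38, SE 0.24), a phosphatase of JAKs and STATs. Socs3 at 0.75 (SE 0.18, adjusted p = 0.00548), Jak2 at -0.39 (SE 0.19, adjusted p = 0.129), Jak1 at -0.46 (SE 0.18, adjusted p = 0.0756) and Stat3 at 0.35 (SE 0.18, adjusted p = 0.161) were not called. The STAT3 targets Batf (1.36, SE 0.23), Hp (1.31, SE 0.20) and Saa3 (1.14, SE 0.20) rose, 3 of 16 with 0 lower (median 0.62), and of the 12 regulators of Il6 Rel (-1.49, SE 0.24) and Rc3h1 (-1.23, SE 0.21) fell. Both shares were near the 16.4% of all genes called in this comparison. These calls depended on the processing. With trends on GC content and length removed, Il11ra1 was at 0.92, Il11ra2 at 0.88, Batf at 0.95, Hp at 0.90, Ptpn2 at -0.63, Rel at -0.74 and Rc3h1 at -0.51, none of them called. Called genes were then 0 of 11 other family genes, 0 of 18 transduction genes, 1 of 16 STAT3 targets (median 0.02) and 0 of 12 regulators of Il6.

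In BMMs, in which none of the 8 genes was called, 8 of the 16 STAT3 targets fell in OVX and 1 rose, with a median of -1.05 against -0.01 for all genes. Saa3 fell by 3.51 on the log2 scale (SE 0.17), Batf by 2.07 (SE 0.20) and Hp by 1.94 (SE 0.24), and Hif1a was the gene that rose, by 1.07 (SE 0.25). Of the transduction genes 5 of 18 fell and 0 rose (median -0.55). Of all genes, 3.08% were called lower and 5.39% higher. Socs3 was at 60.4, 80.0 and 98.4 CPM in OVX and at 235, 229 and 228 CPM in sham, with no overlap, and fell by 1.55 (SE 0.22, adjusted p = 0.00798). Cish fell by 1.54 (SE 0.43) and Socs1 by 1.22 (SE 0.31).

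Stat3 at -0.56 (SE 0.22, adjusted p = 0.128), Jak1 at 0.04 (SE 0.17, adjusted p = 0.901) and Jak2 at 0.53 (SE 0.22, adjusted p = 0.144) were not called in BMMs. Of the regulators of Il6, Zc3h12a (-1.79, SE 0.24), Cebpd (-1.19, SE 0.19) and Arid5a (-1.02, SE 0.26), which stabilizes Il6 mRNA, fell, 3 of 12 with 0 higher, beside 3.08% of all genes. In the list of other family genes 1 of 11 tested was called, lower in OVX, and of the 4 shedding genes 0 were called. Of all genes, 8.46% were called. The summed macrophage markers were at 40100 to 44630 CPM in OVX and 53880 to 58720 CPM in sham, with Adgre1 and Fcgr1 called lower at -1.19 and -1.12. The summed neutrophil markers were at 1123 to 1236 CPM in OVX and 769.7 to 926.8 CPM in sham with 0 of 8 called. Of these 8, 4 were positive and 4 negative (median 0.05), with S100a9 at 0.67 (edgeR adjusted p = 0.0410) and Csf3r at -0.97 (adjusted p = 0.0234) below the fold limit. The summed stromal markers (ranges above) overlapped between the groups with 1 of 12 called higher. The GC relation of the libraries differed between the groups as given above. With trends on GC content and length removed, 6 STAT3 targets fell and 0 rose (median -0.60) and 3 transduction genes fell. In that fit 341 of all 16768 genes were called lower, against 516 in the main fit. Without OVX replicate 2 the counts were 4 STAT3 targets and 0 transduction genes, where 125 of all 16223 genes were called lower. Without that library Socs3 was at -1.54 and Cebpd at -1.28, with edgeR adjusted p of 0.0531 and 0.0514. Cish was not called without any 1 of the 6 libraries. Socs1 was not called without OVX replicate 1 or 2, and Arid5a not without any 1 OVX replicate or sham replicate 2. All 3 were also not called with the trends removed, at -1.20, -0.79 and -0.64. The part of the marker levels in these values was not tested.

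**Figure D5:**
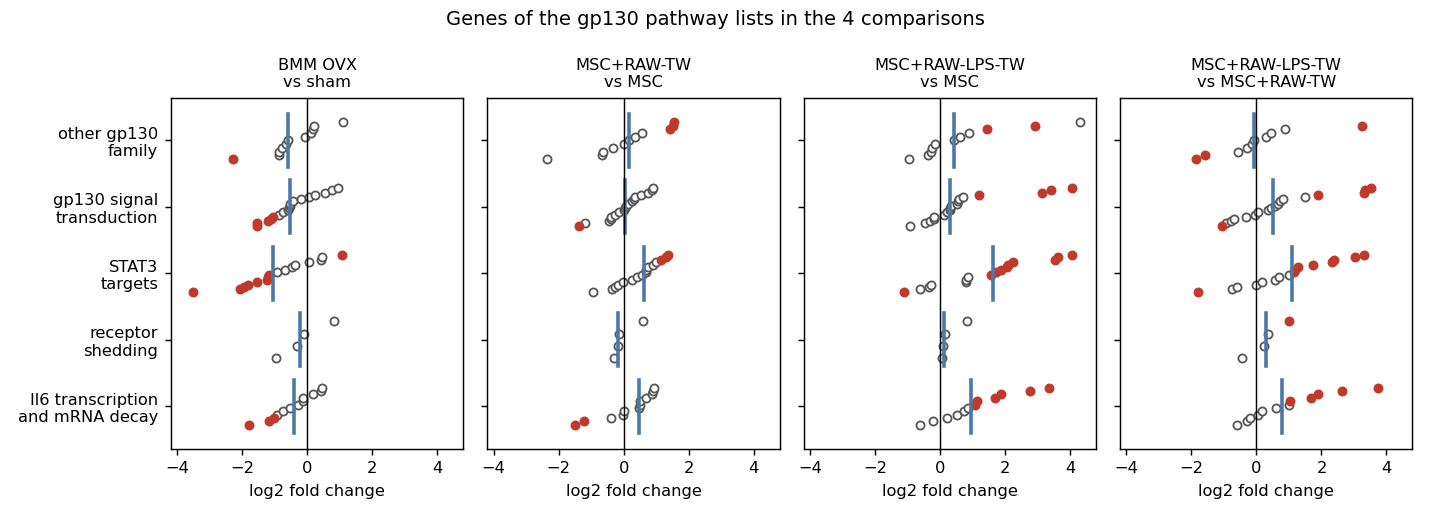
Log2 fold changes of the genes of 5 pathway lists (rows) in the 4 comparisons, filled red where called and open where not, with the list median as a blue line. In the STAT3 row the median lay at -1.05 in BMMs and at 1.64 and 1.08 in the comparisons of MSC+RAW-LPS-TW.

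Genes with the profile most like each ligand were sought over 10 samples of both experiments, among the 13694 genes whose mean reached 1 CPM, by the root mean square (RMS) distance between log2 CPM profiles centered on their mean. For this search both experiments were scaled together, so its CPM differ slightly from those above. Nearest to Il6 were Gm14023 (RMS distance 0.70), Il1b (0.77) and Draxin (0.83). Il1b, the gene of interleukin-1 beta, was at 6572 and 8101 CPM in MSC+RAW-LPS-TW and between 15.9 and 46.2 CPM in every other sample. Nearest to Lif were Ccbe1 (0.42), 3425401B19Rik (0.49) and the neutrophil chemokine gene Cxcl2 (0.53). Nearest to Il11 were Negr1 (0.51), Hcar2 (0.53) and Socs1 (0.54), and nearest to Osm Gtf2a1 (0.18), Pgm3 (0.21) and Tnfrsf23 (0.22). Gm14023, Draxin, 3425401B19Rik and Negr1 reached a mean of 1 CPM only through the MSC+RAW-LPS-TW samples, so the filter itself favoured their likeness to ligands that are high there. The distances carry no test, and samples of a group share its treatment.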

How the data were processed

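The authors trimmed paired reads with Trim Galore 0.6.7, mapped them to GRCm38 with HISAT2 2.1.0 and used featureCounts 2.0.1 to count reads per Ensembl gene. What they deposited is the raw count of every gene in every library, beside its exon length in base pairs. Strand and read pair settings are not given in the sources used here. Among counts of 1 to 20, 60.0% to 71.4% were even in each library, so counts are not independent molecules.

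Counts were fitted for each experiment with edgeR 4.0.16 in R 4.3.3 (TMM, filterByExpr at its defaults, two-sided quasi-likelihood F-test, Benjamini-Hochberg adjustment over all genes tested). Near-identical libraries were summed, and the 3 MSC groups shared 1 fit. A gene was called at an adjusted p of at most 0.05 and a fold of at least 2. The SE is the absolute log2 fold change divided by the square root of F. CPM used TMM library sizes within each experiment, except in the search for like profiles, where the 10 samples of both experiments were scaled together. The fits were tested on simulated counts first.

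The 8 genes and the lists were chosen with earlier results of these data known. Named from each list are up to 3 called genes with the largest absolute log2 fold change, plus Socs3, Stat3, Jak1 and Jak2, and a few others were named after their values were seen. Some genes of the lists are counted but not reported here by name. Alternatives were RLE factors, DESeq2 1.42.0, other filters, every library as its own replicate, trends on GC content and length removed by the lowess function of R, no fold limit, only the groups compared, and each library left out. The library number series as a block was chosen after the data were seen. In the labels MSC+RAW-TW and MSC+RAW-LPS-TW columns matched a group but no replicate number, so those libraries are called a and b. Promoters came from RefSeq. Tables and figures used python 3.11.15, pandas 2.3.3 and matplotlib 3.10.9.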

Additional observations from a re-analysis of the deposited data

How the results depend on the processing

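All 8 genes kept their direction in both comparisons of MSC+RAW-LPS-TW, with MSC and with MSC+RAW-TW, under the 15 alternatives run for each. In these, the log2 fold changes ran from 8.58 to 9.05 and 5.82 to 6.92 for Il6, 5.31 to 5.53 and 4.93 to 5.30 for Lif, 3.22 to 4.54 and 4.31 to 4.68 for Il11, and -2.60 to -2.06 and -1.87 to -1.20 for Lifr, and all of these were called. With trends on GC content and length removed, the direction turned for Lifr (-0.15) and Il6st (-0.070) in BMMs and for Il6st (0.15) and Jak2 (0.18) in MSC+RAW-TW against MSC, none of them called in either fit. With 1 library left out, Il11 in MSC+RAW-TW against MSC ran from -1.11 to 0.21 and Jak1 in BMMs from -0.027 to 0.072, turning without MSC replicate 2 and without sham replicate 1. Over the 8 genes, 465 of the alternative values stayed on the same side of the threshold and in the same direction, 9 newly passed it, 2 no longer passed it and 4 turned.

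The counts of called genes depended more on the processing. In BMMs, 1419 genes were called, against 540 with the trends removed (36.9% of them higher, against 63.6%), 2193 with no fold limit and 309 to 2390 with 1 library left out, the lowest without OVX replicate 2 and the highest without sham replicate 1. In MSC+RAW-LPS-TW against MSC, 2243 became 4286 with no fold limit and 1925 to 2781 with 1 library left out. In MSC+RAW-TW against MSC, 3360 became 2099 with the trends removed, 5862 with no fold limit and 2603 to 4231 with 1 library left out. Between the co-cultures the count stayed between 5373 and 6481 with 1 library left out. Where a group was left with 1 sample, it was assumed to vary like the others. The cause of these shifts was not tested.

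In BMMs, 1818 genes were called with every library as its own replicate, and 2132 with the replicate number as a block added to that, and none of the 8 in the fit with the block. The deviations of same-numbered libraries from their group means correlated at 0.409, -0.026 and 0.353. OVX replicate 2 was not nearest to its own number, while the other OVX replicates were. These values cannot decide whether the numbers pair the libraries. The near-identical sham libraries have nearly the same deviations, so their numbers cannot be told apart in this way. No paired analysis was possible by replicate number in the MSC groups because the columns of the co-cultures carry no usable one. A block on the library number series of the columns, chosen after seeing the data and with every library as its own replicate, gave 2383 genes in MSC+RAW-LPS-TW against MSC, 6629 between the co-cultures, 4489 in MSC+RAW-TW against MSC and 1682 in BMMs, and changed no call of the 8 genes.

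Depth limits Il6 in MSC, at 13 and 26 counts, and Il11 in BMMs, at 24 to 66 counts.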
